A study of Mus musculus with 3 samples.

Results

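The intermediate filament genes Gfap, Vim and Nes were followed across cell types and libraries of mouse dentate gyrus, the hippocampal region where new granule neurons and astrocytes form in adult life. The members are 3 of the 15535 genes listed in at least 1 of the count tables, taken by name, and each of the 3 was listed in all tables. Intermediate filaments are rope-like polymers of the cytoskeleton, and their subunits differ by cell type. Gfap encodes glial fibrillary acidic protein, the filament of mature astrocytes and of radial glia-like neural stem cells. Vim encodes vimentin, a subunit of immature glia, endothelial cells and fibroblasts, and Nes encodes nestin, a large subunit of neural stem and progenitor cells that polymerises with vimentin. In the adult dentate gyrus the radial stem cells are classically recognised by GFAP together with nestin, so the overlap of these genes bears on the title of the series, which concerns new astrocytes from stem cells and from local astrocytes.

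Single cells were profiled by a droplet method that counts unique molecular identifiers (UMIs), 1 for each captured mRNA molecule. There was 1 library per group: runner (8-week-old littermates of the control mice given a wheel for 12 days), aged (14-month-old mice without a wheel) and control (8-week-old mice in standard housing). The sample labels give the strain of all 3 groups as hGFAP-eGFP, a transgenic line in which the human GFAP promoter drives a green fluorescent protein, whereas in the design text the mice are wild type and only the aged ones are tied to the transgene. By the sample labels the control mice carry it too. Its RNA was not analysed here, and no sort on it was described. How many mice were pooled per library is not stated in the labels, so no value below carries a spread between animals. All intervals are exact 95% intervals for counting error only, reads of 1 molecule having been collapsed by UMI, and no test between groups was possible.

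The tables held 3328 runner, 2421 aged and 2356 control barcodes with 3808360, 2537567 and 2330698 UMIs, of which 963, 391 and 512 were used as cells (at least 200 genes, under 10% mitochondrially encoded, or mt-, UMIs, no doublet call). The libraries shared 8 to 10 barcode sequences per pair, and among cells used the runner and aged libraries shared 2 and the other pairs 0. Cell classes were clustered and named without Gfap, Vim and Nes. The astrocyte-like class of 237 cells had all 13 markers of its list detected in at least 25% of cells. The same list gave the class its name, so this is no separate check of it. It joined a larger cluster of 172 cells, led by Gja1 and Gpr37l1, and a smaller one of 65 cells, led by Fabp7 and Slc1a3 with Hopx. The smaller cluster had as many leading genes from the neural stem cell list as from the astrocyte list, so its astrocyte-like name is borderline and it is also described apart.

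Per GENCODE M21 on GRCm38, Gfap (ENSMUSG00000020932.14) lies on the minus strand at chr11:102887336-102900912 with 3 transcripts. Vim (ENSMUSG00000026728.9) lies on the plus strand at chr2:13573927-13582826 with 6 transcripts, and Nes (ENSMUSG00000004891.16) on the plus strand at chr3:87971078-87980451 with 3. The RefSeq promoter windows of the 2 members with most UMIs are shown because the class patterns of these genes differ most clearly. They run 5′ to 3′ on the gene's strand (GRCm38.p6), from 250 bases before to 50 bases after the RefSeq start, at chr11:102897151-102897450 (minus) and chr2:13574061-13574360 (plus). Capitals mark matches, on either strand, to the core promoter box TATAAA, the STAT factor core TTCNNNGAA or the upstream promoter element CCAAT.
Gfap: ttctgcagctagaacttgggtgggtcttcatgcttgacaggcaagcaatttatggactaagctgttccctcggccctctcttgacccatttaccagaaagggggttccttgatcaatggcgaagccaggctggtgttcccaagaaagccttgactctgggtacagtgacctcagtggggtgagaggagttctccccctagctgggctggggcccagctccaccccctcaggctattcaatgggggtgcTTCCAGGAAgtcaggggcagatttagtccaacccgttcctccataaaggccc
Vim: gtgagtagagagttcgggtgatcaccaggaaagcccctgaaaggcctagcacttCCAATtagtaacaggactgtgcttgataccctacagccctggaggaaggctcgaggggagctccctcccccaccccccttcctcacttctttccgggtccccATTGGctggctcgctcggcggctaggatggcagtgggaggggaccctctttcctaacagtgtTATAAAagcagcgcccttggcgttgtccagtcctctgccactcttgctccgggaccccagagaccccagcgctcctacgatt
The Gfap window held 1 TTCNNNGAA match, which begins 2 bases before the RefSeq start, and 8.3% of 32851 mouse promoter windows hold one. The Vim window held TATAAA 32 bases before the start, as do 13.6% of windows at any position, and CCAAT on the plus strand at 196 bases and on the minus strand at 94 bases before it, a motif in 37.4% of windows. No match overlapped another. The Nes window, chr3:87970843-87971142, held none of the 3 motifs, which says only that these letters are not in it. The Gfap window lies inside the annotated gene and its bases before the start fall in no exon, whereas all 250 such bases of Vim fall in exons of other Vim transcripts. These matches are descriptions of sequence, not binding sites.

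Gfap was concentrated in the astrocyte-like cells. Over the 3 libraries it reached 426 CPM (UMIs of the gene over all UMIs of the same cells, on the usual CPM scale; interval 359 to 501, 144 UMIs) in the 237 astrocyte-like cells, against 38.8 CPM (28.6 to 51.4, 48 UMIs) in 803 microglia-like cells, a ratio of 11.0 (7.87 to 15.6). Microglia should not make Gfap, so their level is taken as background. Every other class of at least 20 cells lay near that floor, between 39.0 CPM in Cajal-Retzius-like cells and 68.2 CPM in oligodendrocyte precursor-like cells, and the interval of each ratio to microglia-like cells held 1. Below the first place, neighbours in this order thus do not differ beyond counting error. In single libraries, oligodendrocyte-like cells of the aged library and oligodendrocyte precursor-like cells of the control library stood above microglia-like cells of their own library, at 4.02-fold (1.20 to 13.4) and 3.38-fold (1.10 to 8.90). A Gfap UMI was found in 33.3% of astrocyte-like cells (27.4 to 39.7) with a median of 1299 UMIs per cell, against 5.35% of microglia-like cells (3.90 to 7.15) with a median of 1498. After each cell was thinned to 1000 UMIs, with shallower cells left out, the shares were 27.3% of 172 astrocyte-like and 3.48% of 632 microglia-like cells.

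**Figure D1:**
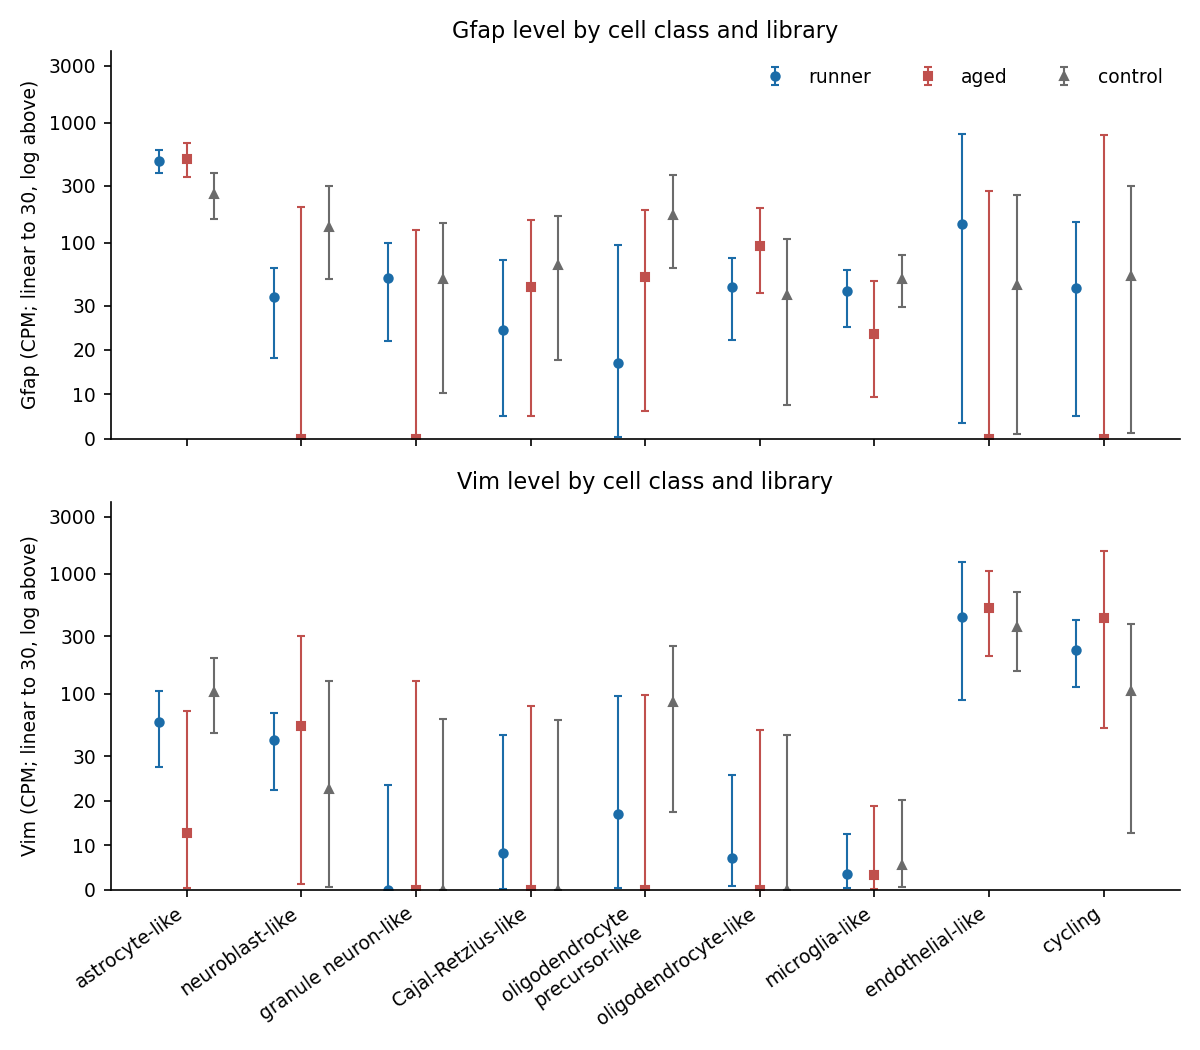
Gfap (upper panel) and Vim (lower panel) in CPM, linear to 30 and logarithmic above, for each cell class (x axis) in the runner, aged and control libraries; points are UMI sums as CPM and bars are exact Poisson 95% intervals. Gfap stood at 478, 501 and 253 CPM in astrocyte-like cells, and Vim was highest over the 3 libraries in the endothelial-like class (420 CPM).

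Within the astrocyte-like class, Gfap was about 2-fold higher in the runner and the aged libraries. It had 83 UMIs in 121 runner cells, 39 UMIs in 52 aged cells and 22 UMIs in 64 control cells, which gives 478 CPM (381 to 593), 501 CPM (356 to 685) and 253 CPM (159 to 383). The runner and aged intervals overlap each other widely and that of control only at its upper edge. The ratio was 1.89 (1.17 to 3.18; log2 0.92) for runner over control and 1.98 (1.14 to 3.50; log2 0.98) for aged over control, and neither interval holds 1. The same scaled counts over all genes with at least 20 UMIs set the background: 21.1% of 1984 genes were at least 1.5-fold higher in runner than in control, and 13.4% of 1157 in aged than in control. Gfap ranked above 91.3% and 94.3% of those genes, while the median gene sat at log2 0.03 and -0.03. Median mt- share was 4.68% in runner, 6.09% in aged and 5.90% in control astrocyte-like cells, and median depth 1313, 1226 and 1303 UMIs. The part of these differences in the result was not tested.

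More astrocyte-like cells held Gfap in the runner and aged libraries, and a single aged cell held much of the aged Gfap. A UMI was found in 48 of 121 runner cells (39.7%, 30.9 to 49.0), 18 of 52 aged cells (34.6%, 22.0 to 49.1) and 13 of 64 control cells (20.3%, 11.3 to 32.2). Thinned to 1000 UMIs, the shares were 31.8% of 88, 25.7% of 35 and 20.4% of 49 cells, in the same order with wide overlap. No runner cell held more than 6 Gfap UMIs and no control cell more than 4, whereas 1 aged cell held 16 of the 39. Without the cell richest in Gfap of each library, the runner over control log2 ratio was 1.10 and the aged over control one 0.53 (interval -0.42 to 1.51), so the aged difference then lay within counting error. With cells thinned to 1000 UMIs the ratios were 0.86 (-0.11 to 1.93) and 0.49 (-0.80 to 1.77), and both intervals held 0. In summed counts, more RNA per cell and more cells that carry it cannot be told apart beyond these shares.

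**Figure D2:**
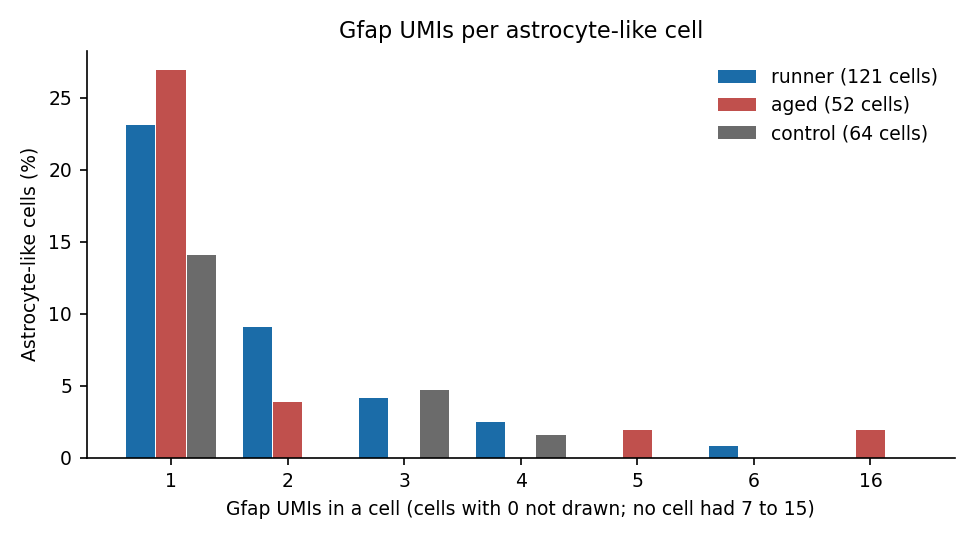
Share of astrocyte-like cells (y axis, percent) by the number of Gfap UMIs in the cell (x axis; cells with 0 are not drawn) in 121 runner, 52 aged and 64 control cells. Most Gfap-positive cells held 1 UMI in each library, and 1 aged cell held 16.

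The 2 astrocyte-like clusters did not differ in Gfap beyond counting error, and Vim and Nes were denser in the smaller. Gfap was 523 CPM in the smaller, Fabp7-led cluster and 384 CPM in the larger one, a ratio of 1.36 (0.95 to 1.93). Vim had 15 UMIs in the 65 cells of the smaller cluster and 5 UMIs in the 172 cells of the larger, 148 against 21.1 CPM, a ratio of 7.02 (2.43 to 24.7). The direction was seen in the runner (8 against 2 UMIs) and control (6 against 3) libraries, and aged, with 1 against 0, had too few UMIs to show one. Few cells held these UMIs, and 1 control cell held 4 of the 6. By cells, Vim was found in 7 of 65 (10.8%, 4.44 to 20.9) and 5 of 172 (2.91%, 0.950 to 6.65), and these intervals overlap. The interval of the ratio counts UMIs of the same cell as separate. All 5 Nes UMIs of the class fell in the smaller cluster and 0 in the larger, where a count of 0 allows a Nes UMI in up to 1.74% of cells. So the smaller cluster held most Vim and all Nes UMIs of the class. The clusters were drawn from other genes of the same cells, so these values describe clusters and are no test.

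By library, Gfap in the larger cluster was 420 CPM in runner, 509 CPM in aged and 209 CPM in control, with ratios to control of 2.01 (1.08 to 3.97) and 2.43 (1.26 to 4.94). In the smaller cluster it was 572, 467 and 401 CPM in runner, aged and control, with ratios to control of 1.43 (0.66 to 3.54) and 1.16 (0.36 to 3.67). The intervals of both ratios leave out 1 in the larger cluster and hold it in the smaller, where the aged library had 8 cells and control 15. The aged cell richest in Gfap lies in the larger cluster and gave 16 of its 32 aged UMIs. Without the richest cell of each library, the larger cluster had log2 ratios to control of 1.30 (0.27 to 2.46) in runner and 0.79 (-0.44 to 2.09) in aged, so the aged interval then held 0. The difference between the clusters in this excess was not tested. The smaller cluster made up 42 of 121 runner, 8 of 52 aged and 15 of 64 control astrocyte-like cells.

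Summed over all cells outside the astrocyte-like class, Gfap ran the other way. It was 38.6 CPM in runner, 34.5 CPM in aged and 62.9 CPM in control cells, ratios to control of 0.614 (0.409 to 0.928) and 0.549 (0.298 to 0.971). Beside it, the 13 astrocyte markers summed to 745, 722 and 906 CPM in the same cells, so they too were highest in control, and in microglia-like cells to 587, 625 and 693 CPM. In neuroblast-like cells Gfap had 12 UMIs in 171 runner, 0 in 12 aged and 6 in 32 control cells, and in oligodendrocyte precursor-like control cells it had 6 UMIs in 21 cells, 169 CPM. Not every class went this way. Ratios to control in runner and aged were 1.17 (0.315 to 6.45) and 2.58 (0.589 to 15.5) in oligodendrocyte-like cells. In microglia-like cells they were 0.791 (0.408 to 1.56) and 0.470 (0.166 to 1.18). Granule neuron-like runner cells were at 1.02 (0.245 to 5.98). Neuroblast-like cells made up 17.8% of runner, 3.07% of aged and 6.25% of control cells. The whole of the cells used therefore showed little difference, at 81.4, 95.01 and 84.3 CPM in runner, aged and control. What part the astrocyte mRNA found outside its class, or the mix of classes, has in these values was not tested.

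**Figure D3:**
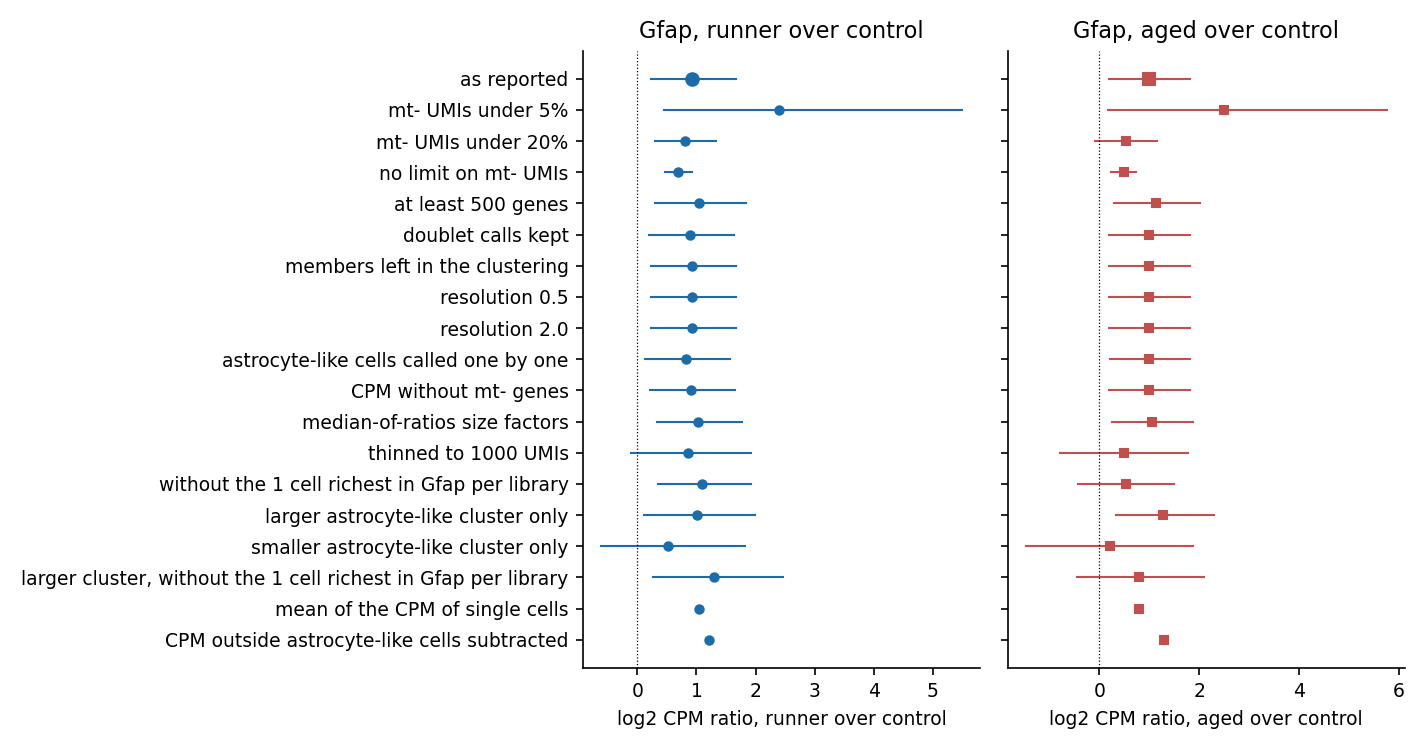
Log2 CPM ratio of Gfap in astrocyte-like cells (x axis) for runner over control (left) and aged over control (right), as reported and under each other setting (rows); lines are exact 95% intervals for counting error, and the last 2 rows have none. All values lie above 0, from 0.51 to 2.40 for runner and from 0.22 to 2.49 for aged.

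Vim was densest in classes other than the astrocyte-like one, although astrocyte-like cells held 20 of its 81 UMIs. Its UMIs, 81 in 1866 cells, were densest in endothelial-like cells, with 420 CPM (249 to 664) and a UMI in 15 of 33 cells, then in the cycling cluster, with 210 CPM (117 to 346) and a UMI in 6 of 28 cells. Astrocyte-like cells followed with 59.1 CPM (36.1 to 91.3), neuroblast-like cells with 39.7 CPM (22.7 to 64.5) and oligodendrocyte precursor-like cells with 30.3 CPM (8.26 to 77.6). The intervals of endothelial-like and cycling cells overlap, and so do those of the next 3 classes. Microglia-like cells held 5 UMIs in 803 cells, 4.04 CPM (1.31 to 9.43), which sets the floor, and Vim was found in 0 of 103 granule neuron-like cells, which allows a share of up to 2.91%. Endothelial-like cells thus stood 104-fold (37.2 to 359) above microglia-like cells, and astrocyte-like cells 14.6-fold (5.33 to 49.9).

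Within the endothelial-like class Vim was 433, 514 and 359 CPM in 7 runner, 9 aged and 17 control cells, which do not differ beyond counting error. Blood cell RNA was present in this class: 5 erythroid markers summed to 41806 CPM (4297 CPM in microglia-like cells) and monocyte or neutrophil markers to 1425 CPM. Of 1790 erythroid UMIs, 1738 were in 2 aged cells, which held 4 of the 7 aged Vim UMIs. Without the 4 cells with at least 10 UMIs of either list, Vim was 474, 595 and 328 CPM in runner, aged and control, and 397 CPM (212 to 680) over the 3 libraries. In astrocyte-like cells it had 10 UMIs (57.6 CPM) in runner, 1 UMI (12.8 CPM) in aged and 9 UMIs (104 CPM) in control, with a ratio of 0.124 (0.00283 to 0.895) for aged over control that rests on 1 UMI in the aged library. For runner over control the ratio was 0.557 (0.203 to 1.55), which holds 1. In the class where Gfap was higher, no rise in Vim was thus seen, but counts this small do not exclude one in runner. Over all cells used, Vim was 24.7, 20.001 and 32.4 CPM in runner, aged and control, ratios to control of 0.762 (0.456 to 1.30) and 0.617 (0.282 to 1.27), and both intervals hold 1. The runner over control ratio turns to just above 1 (log2 0.03) without endothelial-like cells, a class with 7 of 963 runner and 17 of 512 control cells.

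Vim was denser in cycling cells than in the rest. By a rule of at least 3 detected proliferation genes, 47 cells were cycling, from several classes. In them Vim was 170 CPM (20 UMIs, 9 cells), against 20.1 CPM in the 1819 other cells. Nes was 34.0 CPM (4 UMIs) against 3.30 CPM, and Gfap 25.5 CPM (3 UMIs) against 87.0 CPM. Of the 20 Vim UMIs, 15 came from runner, 3 from aged and 2 from control cells, which number 27, 7 and 13. No cell of the astrocyte-like clusters met the cycling rule. Cycling cells had a median of 2338 UMIs, the others 1580, so they were the deeper group, and 3 of the 4 Nes-positive ones had 7 or more microglia markers detected. The cycling cluster of 28 cells had 9 of 10 microglia markers detected in at least 25% of its cells, at 12023 CPM summed. Of the 9 Vim-positive cycling cells, however, 1 had 7 microglia markers detected and the others had 0 to 3. Most of these 9 cells had 3 or more neural stem cell markers detected (range 0 to 6). Which cell type the cycling Vim belongs to was not tested.

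Nes was close to the limit of detection. It had 14 UMIs in 14 cells, 10 in runner, 2 in aged and 2 in control. By class they were 5 in astrocyte-like, 4 in microglia-like, 2 in cycling, 2 in neuroblast-like and 1 in endothelial-like cells. At 4 UMIs in microglia-like cells (3.23 CPM, 0.88 to 8.27), the astrocyte-like level of 14.8 CPM (4.80 to 34.5) was 4.57-fold higher (0.98 to 23.0), which does not exceed counting error. The 5 Nes-positive astrocyte-like cells had 3 or 4 neural stem cell markers and 5 to 9 astrocyte markers detected. No library difference in Nes was detectable at this depth.

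Few cells held UMIs of more than 1 of the 3 filaments. Of all cells used, 195 held Gfap, 57 Vim and 14 Nes, while 9 held Gfap and Vim, 3 Gfap and Nes, 3 Vim and Nes, and 1 all of them. Of the 9 cells with Gfap and Vim, 8 were astrocyte-like (4 runner, 1 aged and 3 control), out of 12 astrocyte-like cells with Vim, so 8 of 12 Vim-positive and 8 of 79 Gfap-positive astrocyte-like cells held both. Gfap was found in 79 of all 237 astrocyte-like cells (33.3%), a lower share than among the Vim-positive ones. Of the 5 Nes-positive astrocyte-like cells, 3 held Gfap. These counts are small, and the part of depth per cell in the overlap was not tested. The cell with all 3 was a runner cell with 2 Gfap, 4 Vim and 1 Nes UMIs, in which 4 stem cell and 5 astrocyte markers were detected. With 1 or 2 UMIs in most positive cells, missing a partner does not show that a cell lacks it.

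Most Gfap of the libraries lay outside the cells used, in barcodes rich in mitochondrial UMIs. Over all barcodes Gfap had 797 UMIs in runner, 616 in aged and 428 in control, and 81.6%, 90.7% and 84.1% of them were in barcodes with at least 10% mt- UMIs. For Vim these shares were 35.7% of 70, 59.4% of 32 and 55.4% of 56 UMIs in runner, aged and control. On a CPM scale over UMIs not encoded in mitochondria (non-mt CPM), Gfap in barcodes with at least 30% mt- UMIs was 657, 609 and 473 in runner, aged and control, against 80.8, 94.4 and 89.2 in those under 10%. The ratio was 8.14 (6.77 to 9.83) in runner, 6.46 in aged and 5.31 in control, while 18.1%, 22.1% and 20.4% of genes were at least 1.5-fold higher in these barcodes. Of the 13 astrocyte markers the glutamate transporter gene Slc1a2 was nearest, at 7.87, 5.88 and 6.03, and the thyroid hormone transporter gene Slco1c1 lowest, at 0.564, 0.222 and 0.525. The median marker was at 1.97, 1.46 and 1.28. Gfap stood above all 13 markers in runner and aged and above all but Slc1a2 in control. Its interval overlaps that of Slc1a2 in runner (Slc1a2 7.38 to 8.39). The same holds in aged (Gfap 4.90 to 8.65, Slc1a2 5.35 to 6.47) and control (Gfap 4.06 to 7.02, Slc1a2 5.53 to 6.60). The order of Gfap and Slc1a2 is thus within counting error. The barcodes under 10% are a mix, in which astrocyte-like cells were 12.6%, 13.3% and 12.5% of runner, aged and control cells used. In those astrocyte-like cells alone Gfap was 478, 501 and 253 CPM over all UMIs. The ratios above are thus not taken within a single cell class, and the part of the cell mix in them was not tested.

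Vim ratios were 0.765 (0.404 to 1.38), 0.392 (0.133 to 1.06) and 0.308 (0.103 to 0.769) between barcodes with at least 30% and under 10% mt- UMIs in runner, aged and control. The background is wide here too, with 58.8%, 52.5% and 52.9% of genes at least 1.5-fold lower in the mt-rich barcodes. Vim was past 1.5-fold lower in aged and control and not in runner, and the interval of the control ratio alone leaves out 1. Its level peaked between these ends in aged and control, at 83.7 (12 UMIs) and 74.2 (16 UMIs) non-mt CPM in barcodes with 10 to 20% mt- UMIs. Nes had 2, 1 and 0 UMIs in barcodes with at least 30%. Between libraries, Gfap in barcodes with at least 30% mt- UMIs was 1.39-fold (1.20 to 1.61) higher in runner and 1.29-fold (1.11 to 1.496) higher in aged than in control. In barcodes with 10 to 30% the ratios were 1.80 (1.32 to 2.46) and 1.09 (0.754 to 1.56). With no limit on mt- UMIs, 1333 runner, 1085 aged and 970 control barcodes were astrocyte-like, with 521, 390 and 218 Gfap UMIs and log2 ratios to control of 0.69 and 0.48. Their Gfap was 676, 631 and 408 non-mt CPM in runner, aged and control. Barcodes of no named class held Gfap at 492, 560 and 477 non-mt CPM in the same order. Erythroid-like ones held it at 721, 452 and 461, from 11, 6 and 17 UMIs. Barcodes named astrocyte-like thus did not hold all of this Gfap. A barcode of no named class only failed the naming rule and is not shown to be of another cell type. What the mt-rich barcodes are, and what mt- share does to these ratios, was not tested.

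**Figure D4:**
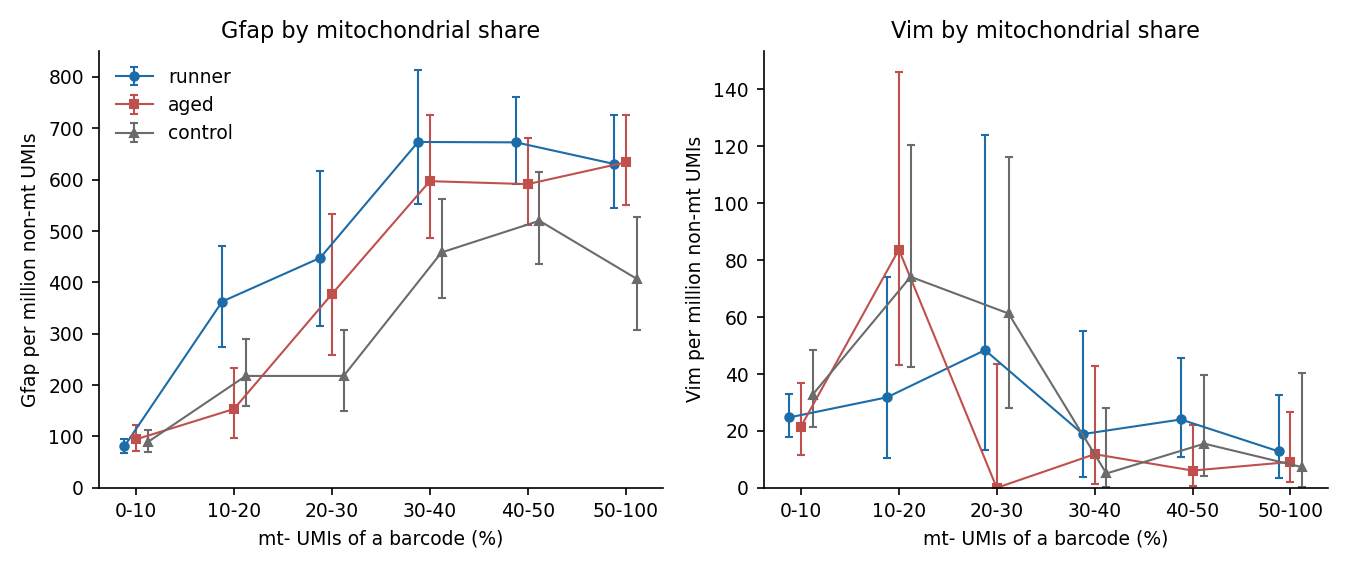
Gfap (left) and Vim (right) in non-mt CPM (y axis) by the percent of mt- UMIs of the barcode (x axis) in the runner, aged and control libraries; bars are exact Poisson 95% intervals. Gfap was lowest under 10% and stood at 406 or more in every bin from 30% up, whereas the highest Vim value there was 24.0.

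Several other intermediate filament genes were densest in other classes than Gfap. Neurofilament light chain Nefl was highest in granule neuron-like cells (252 CPM, 193 to 323), as was medium chain Nefm (60.9 CPM). Alpha-internexin, Ina, was found in granule neuron-like (114 CPM) and Cajal-Retzius-like cells (104 CPM), which do not differ beyond counting error. Of the nuclear lamins, Lmnb1 was highest in cycling cells (224 CPM, 128 to 363) and Lmna in Cajal-Retzius-like cells (108 CPM). In astrocyte-like cells Gfap alone of the 13 family genes reached 20 UMIs in a comparison with control. Of the rest there, Vim had 20 UMIs over the 3 libraries, Nefl 7, Lmnb2 5, Lmna 4, and Synm and Ina 1 each.

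Proteins that bind or link filaments gave no common direction in astrocyte-like cells. Of 14 such genes, 8 had 20 UMIs in runner and control together, of which 2 were at least 1.5-fold higher in runner and 1 lower, beside 21.1% of all genes higher and 9.63% lower. The linker dystonin, Dst, had 20 UMIs in runner against 3 in control (3.34-fold, 0.99 to 17.6), and the kinesin heavy chain Kif5b 36 against 10 (1.80-fold, 0.88 to 4.07). The galectin gene Lgals1 had 14 against 29 (0.242-fold, 0.118 to 0.473). In aged against control, 6 were measured, 1 higher (Kif5b, 2.23-fold, 0.997 to 5.34) and 3 lower, beside 13.4% of all genes higher and 14.0% lower. The lower ones included Cryab, a small heat shock protein that binds GFAP and vimentin (0.534-fold, 0.235 to 1.14), and Lgals1 (0.539-fold, 0.263 to 1.05). The median log2 ratio of the list was -0.31 in runner and -0.36 in aged.

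Regulators known to act on Gfap transcription were measured for 9 of 19 genes in runner against control, with 2 higher and 0 lower, which is near the background of 21.1% and 9.63% of all genes. These were the Notch target Hes1 (1.59-fold, 0.920 to 2.86) and the nuclear factor gene Nfia (1.54-fold, 0.972 to 2.53), and both intervals hold 1. In aged against control 8 were measured, with 4 higher and 2 lower, beside 13.4% and 14.0% of all genes. The median log2 ratio of the list was 0.12 in runner and 0.46 in aged, against 0.03 and -0.03 over all genes. Hes1 was 1.80-fold (0.965 to 3.44) and the glial transcription factor gene Sox9 1.73-fold (1.06 to 2.86) higher, while the receptor gene Notch2 was at 0.352 (0.115 to 0.918) and its target Hes5 at 0.346 (0.192 to 0.596). Hes5 had 18 UMIs in aged and 58 in control, the lowest ratio of the list. Its runner ratio was 0.743 (0.526 to 1.05).

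None of the 20 reactive astrocyte genes, such as Lcn2 and Serpina3n, which rise with Gfap after injury, reached 20 UMIs in either comparison, so a change in them was not detectable at this depth. All 18 astrocyte identity genes did, and 1 was at least 1.5-fold higher and 0 lower in each comparison, beside 21.1% of all genes higher and 9.63% lower in runner and 13.4% and 14.0% in aged. Their median log2 ratio was 0.10 in runner and 0.05 in aged. Most of them, such as Slc1a2 and Aldoc, are also on the marker list that named the class. Slc1a2 had 845 UMIs in runner and 408 in control, whereas the shares of all genes include genes with as few as 20 UMIs. These counts are thus no test of how stable the identity genes are. The higher gene was the receptor gene Gpr37l1 in runner (1.53-fold, 1.20 to 1.96) and the water channel gene Aqp4 in aged (1.503-fold, 1.02 to 2.22). The gap junction gene Gja1 was lower in runner (0.751, 0.612 to 0.925) and the clusterin gene Clu in aged (0.682, 0.572 to 0.811), short of 1.5-fold. Of the neural stem cell list, 3 of 8 measured genes were higher and 1 lower in runner, beside 21.1% and 9.63% of all genes, with a median log2 ratio of 0.44. The higher ones were led by the fatty acid binding protein gene Fabp7 (2.01-fold, 1.58 to 2.59) and Thrsp (1.79-fold, 1.32 to 2.47). Fabp7 leads the smaller cluster, which held 42 of 121 runner, 8 of 52 aged and 15 of 64 control cells. For aged over control, Fabp7 was at 1.37 (1.02 to 1.86) and Thrsp at 1.10 (0.735 to 1.63). The part of the cluster shares in these ratios was not tested. In aged, 2 of 7 were higher, Sox9 and the stem cell marker Hopx (1.58-fold, 1.06 to 2.35), and 1, Notch2, lower, beside 13.4% and 14.0% of all genes, with a median of 0.29.

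Of 17 genes that respond to tissue dissociation, 9 were measured in runner against control, with 4 higher and 0 lower, beside 21.1% of all genes higher. Their median log2 ratio was 0.50, against 0.03 over all genes. The immediate early gene Ier2 had 32 UMIs in runner against 3 in control (5.34-fold, 1.67 to 27.3), and the AP-1 subunit gene Junb 59 against 16 (1.85-fold, 1.05 to 3.44). In aged 6 were measured, with 0 past 1.5-fold in either direction and a median of -0.09, against -0.03 over all genes. Their part in the Gfap difference was not tested. Endothelial markers were nearly absent from astrocyte-like cells, with 1 UMI over the 8 genes in each library, leptomeningeal markers were at 0, and the 10 microglia markers summed to 305, 372 and 230 CPM in runner, aged and control. The 11 granule neuron markers summed to 357, 1091 and 495 CPM in runner, aged and control. Mural markers had 16, 6 and 1 UMIs (92.2, 77.04 and 11.5 CPM), from 2, 2 and 1 of 8 genes, with the defining markers Rgs5, Vtn and Acta2 at 0. The part of these RNAs in the Gfap result was not tested.

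**Figure D5:**
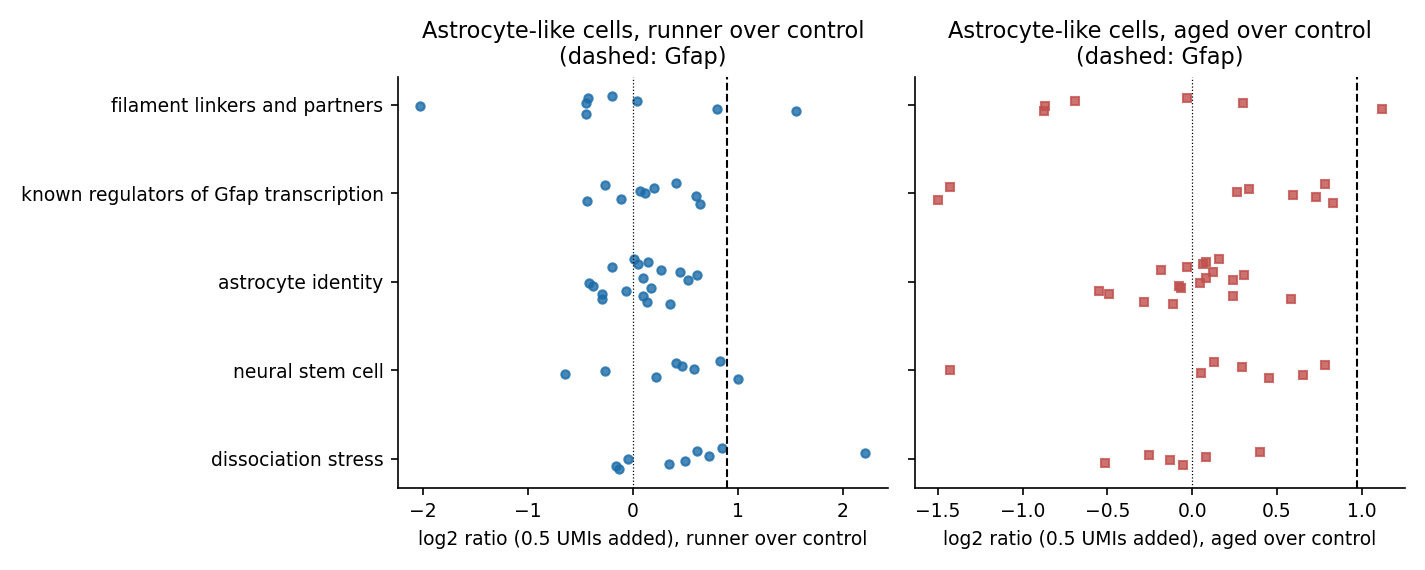
Log2 ratio (x axis; after adding 0.5 UMIs to both counts) in astrocyte-like cells of each list gene with at least 20 UMIs, for runner over control (left) and aged over control (right), by gene list (rows); the dashed line is Gfap and the dotted line 0. Astrocyte identity genes sit around 0 in both, all left of Gfap, and Ier2 lies farthest right in runner.

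The genes whose level followed Gfap most closely were taken over 19 points, each a class in a library with at least 20 cells, by Pearson's r of log2(CPM + 10) among 7810 genes with at least 50 UMIs. For Gfap they were the metallothionein gene Mt2 (r = 0.88), Mgst1 (0.87), the ion pump regulator gene Fxyd1 (0.87), Slco1c1 (0.85) and Pla2g7 (0.84). All of them were far higher in astrocyte-like than in microglia-like cells, for example Fxyd1 at 777 against 22.6 CPM, although Slco1c1 was higher still in endothelial-like cells (631 CPM), a class outside the 19 points. For Vim they were A830082K12Rik (0.85), the glycine decarboxylase gene Gldc (0.84), the dystroglycan gene Dag1 (0.80), Pmpcb (0.79) and Rorb (0.78), from 47 Vim UMIs. In endothelial-like and in cycling cells, where Vim was densest, each of these 5 genes had at most 2 UMIs. Their likeness to Vim thus holds only over the classes among the points. Gfap and Vim shared none of their 5 genes. The points share libraries and depth, endothelial-like and cycling cells are too few to be among them, and Nes, with 11 UMIs over the points, was left out.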

How the data were processed

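The 3 libraries were made with the Chromium Single Cell 3' v2 kit after trypsin digestion, per the labels. For each library the authors deposited UMI counts per gene and barcode, not normalized. The build was GRCm38 and the tools were Seurat 3.1.0 and Cell Ranger 2.1.1, per the submitters' processing notes. Aligner, annotation and barcode rule: not given in the sources used here. Each listed gene had UMIs in at least 3 barcodes.

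Barcodes with at least 200 genes and under 10% mt- UMIs were kept (969 runner, 393 aged and 514 control), and Scrublet at an expected rate of 0.05 removed 6, 2 and 2 as doublets. Under 1% of barcodes were thus called doublets, and doublets may remain. The 2000 most variable genes, without Gfap, Vim and Nes, gave 30 principal components, a graph of 15 neighbours and Leiden clusters at resolution 1.0. Clusters were named "like" a type from 23 marker lists, by thresholds set after seeing the data, and a neural stem cell name was counted with astrocytes in other settings. UMIs were summed per class and library and scaled to CPM. Intervals are exact Poisson (levels), conditional binomial (ratios) and Clopper-Pearson (shares), and a count of 0 is limited by 3 counts.

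With 1 library per group no test was run, and differences are described against 1.5-fold for genes with at least 20 UMIs. The ratio and thinning code was tested on simulated data. The members and lists were chosen with earlier results of these data known. Named genes are the members, the 5 most like each, and the 2 highest and 2 lowest of each list. Further genes named in the text, such as other family members and Slc1a2, were chosen after their values were seen. Depth per cell was a median of 1747, 1409 and 1460 UMIs in runner, aged and control, so a gene of low level is missed in many cells. Other settings tried were mt- limits, a gene minimum, doublets kept, clustering and scaling choices, and thinning. Tools were Python 3.11.15, Scanpy 1.11.5, leidenalg 0.10.2, SciPy 1.17.1, NumPy 2.4.6 and pandas 2.3.3.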

Additional observations from a re-analysis of the deposited data

Results flagged for a closer look

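Summed over cells, Gfap moved in opposite directions inside and outside the astrocyte-like class under the same contrast, though not in every outside class. The log2 CPM ratio of runner over control was 0.918 in astrocyte-like cells and -0.705 outside them. That of aged over control was 0.984 in astrocyte-like cells and -0.866 outside them. The difference between the classes was not tested, since each group is 1 library.

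Gfap was also present in barcodes that the cell comparisons leave out. Barcodes with at least 10% mt- UMIs held Gfap at 599 CPM in runner, 529 CPM in aged and 376 CPM in control, scaled over UMIs not encoded in mitochondria.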

How the results depend on the processing

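The Gfap ratios in astrocyte-like cells kept their direction under each of 18 other settings per comparison. Of these, 17 gave log2 values of 0.51 to 1.30 for runner over control and of 0.22 to 1.29 for aged over control, a range that stays within the counting interval of the reported value. Some of the 17 changed little or nothing. Leaving the members in the clustering, resolution 0.5 and resolution 2.0 returned the reported UMI and cell counts. CPM without mt- genes and median-of-ratios size factors only rescaled those UMIs. With doublet calls kept there were 122 runner cells against 121, and no change in aged or control. The 18 settings are thus not separate checks. With mt- UMIs limited to under 5%, the log2 ratios were 2.40 for runner and 2.49 for aged, from 40 and 8 UMIs against 2 in 19 control cells. Under 20%, the aged interval held 0 (0.53, -0.08 to 1.16). Thinned to 1000 UMIs both intervals held 0 (runner 0.86, -0.11 to 1.93; aged 0.49, -0.80 to 1.77), as in the smaller cluster alone (runner 0.51, -0.61 to 1.82; aged 0.22, -1.48 to 1.88). Without the richest cell of each library the aged interval held 0 in the class (0.53, -0.42 to 1.51) and in the larger cluster (0.79, -0.44 to 2.09). Runner over control for Vim over all cells used turned to 0.82 with mt- UMIs under 5% and to 0.026 without endothelial-like cells, and aged over control for Vim stayed between -1.41 and -0.28. The causes were not tested. The settings that leave out a class, a cluster or 1 cell, take the mean of single cells or subtract the level outside the class were chosen after seeing the data. No paired analysis was possible because each group is 1 library and no label pairs mice across groups.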
